A study of Mus musculus with 27 samples.

Results

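The data set out here compared total RNA from RAW264.7 cells given LPS and TM7nox together with total RNA from cells given DMSO alone. The 8 libraries, 4 per group, were chosen by their treatment labels from the 27 in the series. RAW264.7 is an established mouse macrophage line, so every library came from the same genetic background. DMSO was the vehicle, and the DMSO group received neither agent. The LPS+TM7nox group received LPS (lipopolysaccharide, an outer-membrane component of gram-negative bacteria) at 1 µg/ml and the tanshinone mimic TM7nox at 10 µM. All groups were harvested after 6 h. A further group of 4 total RNA libraries, given LPS at 1 µg/ml with DMSO, is used for values set side by side. Total RNA of cells given TM7nox without LPS was not analysed here, so in LPS+TM7nox against DMSO the effects of the 2 agents cannot be told apart. The labels number the replicates 1 to 4 in each group and do not say that they came from separate cultures, so the p-values measure the spread between these samples, which may be technical.

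LPS is recognised on macrophages by Toll-like receptor 4 with its partners Cd14 and Ly96. The receptor switches on NF-kB, which drives cytokine and chemokine genes, and Irf3, which drives type I interferon and through it the interferon-stimulated genes. The same transcription factors induce their own inhibitors. Nrf2 (antioxidant and heme-degrading enzymes) and Atf4 (amino acid supply under the integrated stress response) belong to stress pathways. The same is true of heat shock factor and the unfolded protein response of the endoplasmic reticulum. Each has its own gene list here, but the pathways can share target genes, so the lists are not independent. Tanshinone mimics are small molecules made to keep HuR, the protein encoded by Elavl1, off AU-rich mRNA, a class that holds many cytokine transcripts.

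The DMSO libraries held 2728534 to 27543656 counts and the LPS+TM7nox libraries 16258731 to 26582325. DMSO replicate 1 was the shallowest of the 12 total RNA libraries. On the second principal component (17.4% of the variance) it lay apart from the other DMSO libraries, at 91.47. Replicate 1 was also the highest of its group there in LPS (39.14) and LPS+TM7nox (20.64). Counts of called list members are also given without DMSO replicate 1 where they differ. The first component (54.1%) separated the DMSO libraries from the other 8. Of 10 macrophage marker genes all were tested, and their summed level was 7507 to 8702 CPM (counts scaled to a common library size, with TMM normalisation) in DMSO and 4586 to 8252 in LPS+TM7nox, with 3 called higher and 3 lower, against 23.7% and 23.6% of all genes. Summed markers of T cells, fibroblasts, epithelium and neutrophils reached at most 0.622 CPM in any of the 8 libraries, and Epcam, Krt8, S100a9 and Ly6g were at 0 in all of them. The B cell list summed to 0 to 0.297 CPM in DMSO and 2.11 to 5.57 in LPS+TM7nox, almost all of it Pax5, while Ms4a1 stayed at or near 0. Of the dendritic cell list 1 of the 2 genes tested, Xcr1, and of the osteoclast list 1 of the 5 tested, Mmp9, was called higher, against 23.7% of all genes, and none lower.

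The combined treatment moved the levels of nearly equal numbers of genes up and down, but the upward changes reached further. Of 12369 genes with enough reads to be tested, 5850 (47.3%) were called, meaning an adjusted p (Benjamini-Hochberg, over all genes tested, from edgeR's quasi-likelihood F test) under 0.05. They split into 2926 higher (23.7%) and 2924 lower (23.6%) in LPS+TM7nox. With a log2 fold change of 1 or more there were 1526 higher (12.3%), and with -1 or less 1534 lower (12.4%). At 4 or more there were 217 higher genes against 34 lower ones at -4 or less, and at 6 or more 76 against 3. The median log2 fold change over all genes was -0.01. For 4860 genes (39.3%) the gene was called and the 4 libraries of one group lay wholly above the 4 of the other. Without DMSO replicate 1, 3104 genes were called higher and 3105 lower. In bulk RNA, fewer cells of a kind and less RNA per cell cannot be told apart.

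**Figure D1:**
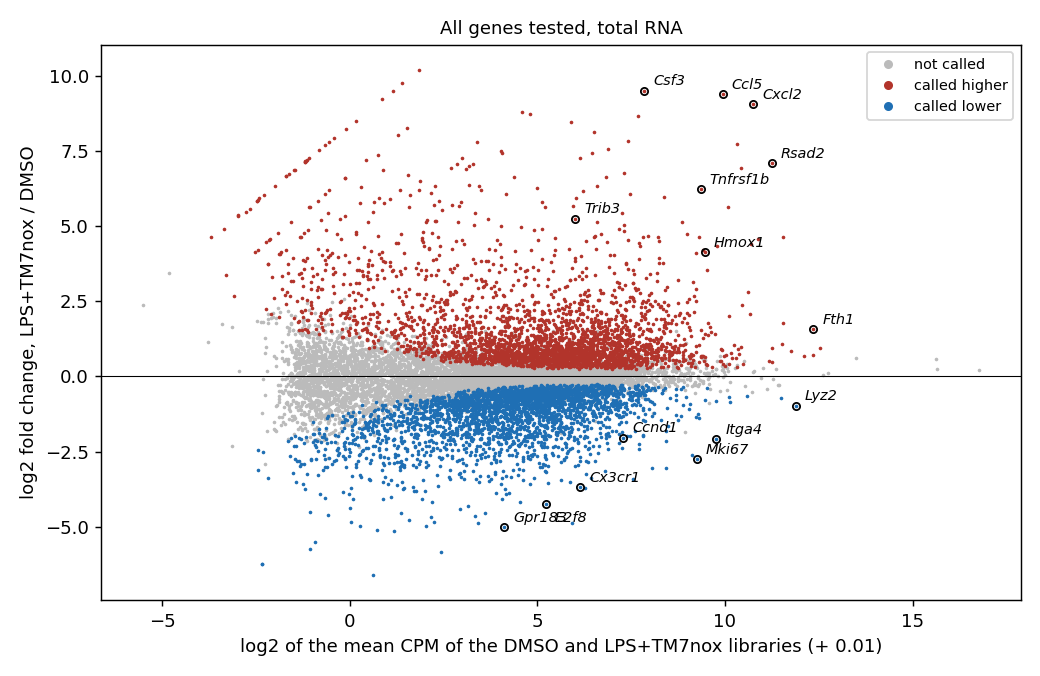
Each point is 1 of the 12369 genes tested; the x axis is the log2 mean CPM over the 8 libraries (0.01 added) and the y axis the log2 fold change of LPS+TM7nox over DMSO, with called genes in red (2926 higher) and blue (2924 lower). Red points rise to about 10, while blue points reach below -5 for few genes.

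Among genes averaging 5 CPM or more across the 12 total RNA libraries, the 12 largest called increases without overlap between the groups were in Csf2, Csf3, Ccl5, Cxcl2, Il6, Lcn2, Il1b, Il1a, Serpina3f, Il27, Slc7a2 and Nos2. They were picked by fitted log2 values, which depend on the prior count where DMSO had few or no reads, and no rank among them is drawn. Values are given for replicates 1 to 4 in that order, and gene coordinates are from GENCODE M39 on GRCm39. Ccl5, a chemokine for T cells and monocytes (chr11:83416602-83425942, minus strand), was read at 1.77, 1.89, 5.51 and 1.8 CPM in DMSO and 1357, 1809, 2386 and 2308 CPM in LPS+TM7nox (log2 fold change 9.40, SE 0.424, adjusted p = 4.33e-09). Csf3, the granulocyte colony-stimulating factor (chr11:98592089-98594458, plus strand), was read at 0.591, 0.531, 1.31 and 0.0428 CPM in DMSO and 414, 310, 601 and 517 CPM in LPS+TM7nox (log2 fold change 9.51, SE 0.495, adjusted p = 6.77e-09). Nos2, the inducible nitric oxide synthase (chr11:78811613-78851080, plus strand), stood at 0, 1.43, 2.08 and 1.28 CPM in DMSO and 229, 368, 396 and 359 CPM in LPS+TM7nox (log2 fold change 7.85, SE 0.334, adjusted p = 2.53e-09). The rule that picked these genes required every treated library to lie above every DMSO library. Without DMSO replicate 3 the log2 fold change was 10.06 for Ccl5 and 10.41 for Csf3. Lcn2, a lipocalin that binds bacterial siderophores (chr2:32274645-32278264, minus strand), was at 0, 0, 0.382 and 0.0428 CPM in DMSO and 64, 34.4, 59.1 and 67 CPM in LPS+TM7nox (log2 fold change 8.74, SE 0.508, adjusted p = 1.78e-08). Its level in DMSO rests on 10 counts, 9 of them in replicate 3, and the log2 fold change was 11.21 without that library and 8.11 without DMSO replicate 2. Slc7a2, an arginine transporter, had 1 count in all DMSO libraries together and 398 in LPS+TM7nox, a ratio of 403 with a 95% counting interval of 72 to 15977. Serpina3f, a serine protease inhibitor, likewise had 1 count against 481 (ratio 488, interval 87.1 to 19300). Both single counts were in DMSO replicate 3. The intervals cover counting error only, since reads copied by PCR are not independent molecules. Il27, an immunoregulatory cytokine (chr7:126188181-126194209, minus strand, overlapping Apobr on the other strand), was at 0, 0.664, 1.02 and 0.385 CPM in DMSO and 68.8, 194, 256 and 209 CPM in LPS+TM7nox (log2 8.13, adjusted p = 2.55e-08).

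The 12 largest decreases by the same rule were Gpr183, Ung, H3c8, Pald1, Esco2, Egr3, E2f7, E2f8, Kbtbd11, Fbxo5, Wdhd1 and Elovl6, with log2 fold changes from -5.01 to -3.88. Gpr183, an oxysterol receptor that guides cell migration (chr14:122189592-122202610, minus strand, inside Ubac2 of the opposite strand), was read at 29.8, 36.6, 32.9 and 34.8 CPM in DMSO and 1.33, 1.01, 1.02 and 0.822 CPM in LPS+TM7nox (log2 fold change -5.01, SE 0.257, adjusted p = 6.38e-09). E2f8, an atypical E2F repressor of the cell cycle (chr7:48516176-48531452, minus strand), was read at 75.3, 68, 71.4 and 70.6 CPM in DMSO and 5.5, 4.45, 2.17 and 2.9 CPM in LPS+TM7nox (log2 fold change -4.26, SE 0.313, adjusted p = 1.25e-07), and its relative E2f7 at 18.6, 15.7, 18.1 and 14.9 CPM in DMSO and 1.01, 1.2, 0.655 and 0.493 CPM in LPS+TM7nox (log2 -4.32, adjusted p = 6.11e-06). Elovl6, the elongase that extends palmitate (chr3:129326004-129432144, plus strand), stood at 32.2, 29.5, 41.3 and 38.1 CPM in DMSO and 2.21, 2.73, 2.05 and 2.57 CPM in LPS+TM7nox (log2 fold change -3.88, SE 0.178, adjusted p = 4.64e-09). The rule that picked these 4 genes required groups without overlap, and their DMSO libraries spread little. Ung, a uracil-DNA glycosylase, was at 26, 17.5, 18.9 and 20.4 CPM in DMSO and 0, 0.957, 0.983 and 0.712 CPM in LPS+TM7nox (log2 -4.88, adjusted p = 5.48e-06), and replicate 1 of the treated group held no read of it. Esco2, which acetylates cohesin, fell by 4.53 (adjusted p = 8.7e-07), Fbxo5, an inhibitor of the anaphase-promoting complex, fell by 4.09 (adjusted p = 9.94e-07), and Egr3, an immediate-early transcription factor, fell by 4.42 (adjusted p = 1.35e-05). Pald1 fell by 4.63 (adjusted p = 1.92e-05) and Wdhd1, a protein of the replication fork, fell by 3.92 (adjusted p = 1.19e-07). Kbtbd11 spread more than these in DMSO, with 23.3, 29, 60.8 and 60.8 CPM in DMSO against 3.48, 2.78, 2.09 and 1.37 CPM in LPS+TM7nox. The sources used here do not say whether counting used strand, so reads of a gene and of a partner on the other strand, as for Gpr183 and Ubac2, may not be told apart.

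**Figure D2:**
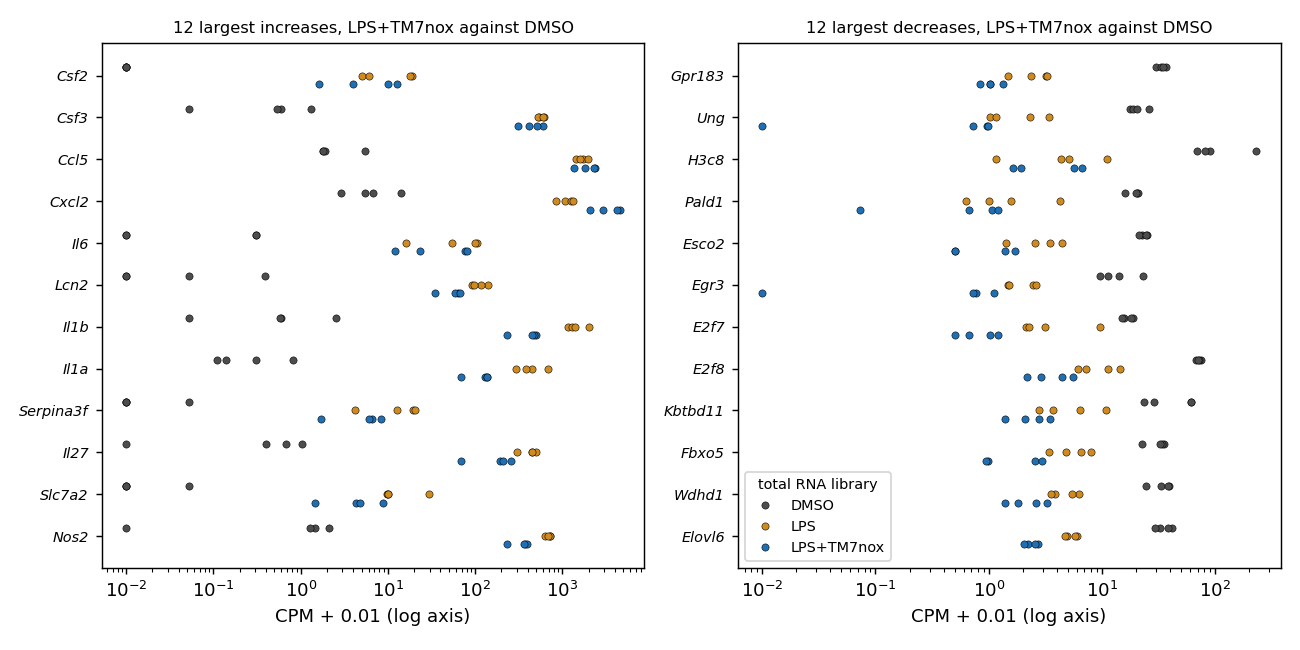
CPM with 0.01 added, on a log axis, of the 12 largest increases (left) and 12 largest decreases (right); each point is 1 library, grey for DMSO, orange for LPS and blue for LPS+TM7nox, 4 per group. The genes were picked for groups without overlap, so the blue and grey points are apart in every row. Genes without a read lie at 0.01.

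Cytokine genes rose almost without exception among those with enough reads. Of 24 members, 21 were tested and 20 were called higher (95.2%, against 23.7% of all genes), none lower. The median log2 fold change was 5.55, against -0.01 over all genes. Some members, such as Csf2 and Il6, passed the read filter only through the groups given LPS. Such members could hardly be called lower, which the share and the median include. Il6, which drives the acute phase response (chr5:30218112-30224979, plus strand), was read at 0.295, 0, 0.297 and 0 CPM in DMSO and 12, 23.6, 76.4 and 79.5 CPM in LPS+TM7nox (log2 fold change 8.81, SE 1.08, adjusted p = 1.29e-05). Il1b (chr2:129206490-129213059, minus strand) was read at 0.591, 0.564, 2.54 and 0.0428 CPM in DMSO and 234, 495, 476 and 448 CPM in LPS+TM7nox (log2 fold change 8.68, SE 0.651, adjusted p = 1.49e-07), and Il1a at 0.295, 0.0996, 0.806 and 0.128 CPM in DMSO and 68.9, 130, 137 and 137 CPM in LPS+TM7nox (log2 8.47, adjusted p = 2.68e-08). Both encode ligands of the interleukin-1 receptor. These 3 genes were among the 12 increases picked for groups without overlap, and the treated libraries of Il6 spread from 12 to 79.5 CPM. DMSO replicate 3 held 7 of the 8 DMSO counts of Il6, 60 of the 80 of Il1b and 19 of the 26 of Il1a. Without it the log2 fold changes were 10.96, 10.19 and 9.82, and without DMSO replicate 2 that of Il6 was 8.17.

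Csf2, the granulocyte-macrophage colony-stimulating factor, had no count in any DMSO library and 575 in LPS+TM7nox (3.98, 1.63, 10.1 and 12.7 CPM), which is at least 194-fold higher when 3 counts over the DMSO group are taken as the floor (adjusted p = 0.000152; its fitted log2 value depends on the prior count and is no bound). Il1rn, the natural antagonist of the interleukin-1 receptor, was at 216, 220, 127 and 53.7 CPM in DMSO and 2490, 4009, 4215 and 3835 CPM in LPS+TM7nox (log2 fold change 4.57, SE 0.385, adjusted p = 4.16e-07). Its treated libraries were all above the highest DMSO library. Tnf rose from 69.6 ± 22.7 to 1284 ± 297 CPM (mean ± SD, n = 4 per group; log2 4.21, adjusted p = 1.94e-08), Osm from 1.6 ± 0.521 to 45.3 ± 19.9 CPM (log2 4.98, adjusted p = 2.16e-07) and Lif from 2.2 ± 2.25 to 146 ± 112 CPM (log2 6.18, adjusted p = 9.53e-05, or 7.85 without DMSO replicate 3). Il10, the anti-inflammatory cytokine, rose from 0.357 ± 0.36 to 10.5 ± 4.73 CPM (log2 5.55, adjusted p = 5.82e-07), and Il33 from 0.0673 ± 0.0828 to 5.99 ± 4.01 CPM (log2 6.04, adjusted p = 0.000367, or 6.70 without DMSO replicate 3). Gdf15, a stress-induced member of the TGF-beta family, rose from 0.251 ± 0.176 to 7.35 ± 3.48 CPM (log2 4.54, adjusted p = 4.44e-06), and Vegfa, the angiogenic factor, from 11.5 ± 2.31 to 45.2 ± 6.18 CPM (log2 1.95, adjusted p = 4.76e-06). The member tested but not called was Tnfsf9 (log2 1.19, adjusted p = 0.0729; called with the replicate number as a block, at an adjusted p of 0.000857, and without replicate 1 of LPS, 0.0317, or of LPS+TM7nox, 0.0382), and Il12a, Il12b and Inhba had too few reads to test.

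Set beside the LPS libraries, which share the DMSO libraries as their reference and so are not independent of them, the cytokines did not stand in 1 order. Mean levels in DMSO, LPS and LPS+TM7nox were 0.936, 1469 and 413 CPM for Il1b, 0.357, 37.1 and 10.5 for Il10, and 0.0673, 57.2 and 5.99 for Il33. In these 3 genes LPS+TM7nox lay below LPS (log2 -1.83, -1.82 and -3.24, adjusted p = 0.0144, 0.00152 and 0.0036). The same 3 levels were 69.6, 875 and 1284 CPM for Tnf, where LPS+TM7nox and LPS were not told apart (log2 0.55, adjusted p = 0.114), and 0.251, 0.509 and 7.35 for Gdf15, where LPS+TM7nox was above LPS (log2 3.82, adjusted p = 9.54e-05). Against LPS, 1704 of the 12369 genes were called (13.8%, with 7.37% higher and 6.4% lower; 3091 when the replicate number was a block, 12.3% of all genes higher and 12.7% lower), and LPS against DMSO gave 5190 (42%). Of the 21 cytokine genes, LPS+TM7nox was called above LPS in 2 and below it in 6 (3 and 9 with the block).

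Chemokine genes, which draw leukocytes to a site of infection, also rose. Of 19 members 17 were tested, and 16 were called higher (94.1%, against 23.7% of all genes), none lower. The median was 5.22, or 5.03 when the gene without a DMSO read is set at its lower bound. Ccl17, Cxcl3, Cxcl9 and Ccl12, with 0 to 3 DMSO counts each, passed the read filter only through groups given LPS. They could hardly be called lower. Cxcl2, a neutrophil attractant (chr5:91051730-91053797, plus strand), was read at 14.2, 5.41, 6.74 and 2.91 CPM in DMSO and 2893, 2084, 4544 and 4225 CPM in LPS+TM7nox (log2 fold change 9.06, SE 0.487, adjusted p = 8.91e-09). All treated libraries were above the LPS libraries, which stood at 841, 1059, 1248 and 1329 CPM (LPS+TM7nox over LPS, log2 1.62, adjusted p = 0.00629). Ccl3, a ligand of Ccr1, was read at 139, 526, 133 and 114 CPM in DMSO and 3574, 5507, 6890 and 7121 CPM in LPS+TM7nox (log2 fold change 4.66, SE 0.5, adjusted p = 3.89e-06). DMSO replicate 2 was the high one of its group, and without it the log2 fold change was 5.49. Ccl2, the monocyte attractant, was at 83, 50.1, 9.88 and 9.7 CPM in DMSO and 1112, 950, 939 and 920 CPM in LPS+TM7nox (log2 4.75, adjusted p = 1.83e-05). Its DMSO libraries of replicates 1 and 2 were above those of 3 and 4, yet all lay far below the treated ones, and without replicate 1 the log2 fold change was 5.39. Ccl9 rose less, from 672, 502, 294 and 276 CPM to 1571, 2247, 1624 and 1657 CPM (log2 2.03, adjusted p = 2.13e-05), and Cxcl16, which attracts Cxcr6-bearing T cells, from 46 ± 7.3 to 125 ± 29.9 CPM (log2 1.45, adjusted p = 1.57e-05).

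Ccl22, Ccl7, Cxcl11 and Cxcl10 rose by log2 7.52, 7.01, 6.65 and 5.03 over DMSO and differed from LPS by -2.06, -1.58, -1.84 and -1.24 (adjusted p against LPS = 0.00353, 0.00148, 0.000133 and 0.00137). Without DMSO replicate 2 the rise over DMSO was 8.28 for Ccl22 and 7.73 for Ccl7. Ccl17 had no DMSO count and 77 in LPS+TM7nox, at least 26-fold higher. Cxcl3 had 1 count against 239 (ratio 242, interval 43.1 to 9610), Cxcl9 2 against 99 (ratio 50.2, interval 13.5 to 420) and Ccl12 3 against 134 (ratio 45.3, interval 15.2 to 222), ratios that rest on few DMSO reads and move when 1 library is left out. Over the 17 genes, LPS+TM7nox was called above LPS in 1 and below it in 8, against 7.37% and 6.4% of all genes. The member not called against DMSO was Cxcl14 (log2 -1.41, adjusted p = 0.276). It was called lower without LPS+TM7nox replicate 1 (log2 -3.78, adjusted p = 0.00529) and with the replicate block (log2 -2.30, adjusted p = 0.00582), while Cxcl1 and Cxcl5 had too few reads.

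The promoter of Cxcl2, the chemokine that stood highest against LPS, is shown because it carries the kappa-B motif, the NF-kB element, in 2 copies. RefSeq promoter windows (GRCm38.p6, from 250 bases before to 50 after a start) were found for 12 of the 19 chemokine genes. The kappa-B motif, searched on both strands, stood in 4 of the 12 windows (33.3%), those of Ccl9, Cxcl1, Cxcl2 and Cxcl3, against 1.63% of all 32851 windows. A match is a description and not a binding site. The Cxcl2 window (chr5:90903649-90903948, plus strand) holds 2 matches, in capitals:
Cxcl2: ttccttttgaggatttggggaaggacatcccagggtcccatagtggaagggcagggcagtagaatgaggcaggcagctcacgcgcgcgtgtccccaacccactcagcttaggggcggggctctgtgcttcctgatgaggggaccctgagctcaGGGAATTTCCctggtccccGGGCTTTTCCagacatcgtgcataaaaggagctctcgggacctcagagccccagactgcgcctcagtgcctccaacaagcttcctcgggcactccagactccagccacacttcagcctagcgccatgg

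All 40 interferon-stimulated genes were tested and called higher (100%, against 23.7% of all genes), with a median log2 fold change of 3.21 and a range of 1.06 to 7.43. For 39 of them the 2 groups did not overlap, which held with a call in 39.3% of all genes. Rsad2, the antiviral radical enzyme viperin (chr12:26492745-26506451, minus strand), was read at 58.2, 34.5, 35.5 and 15.7 CPM in DMSO and 2500, 4519, 6210 and 6172 CPM in LPS+TM7nox (log2 fold change 7.11, SE 0.432, adjusted p = 2.6e-08). Gbp5, a guanylate-binding protein of the inflammasome pathway (chr3:142199739-142228105, plus strand), was read at 0, 1.56, 1.27 and 0.385 CPM in DMSO and 110, 253, 168 and 173 CPM in LPS+TM7nox (log2 fold change 7.43, SE 0.43, adjusted p = 1.72e-08). Ifit1, which binds foreign RNA caps (chr19:34618271-34632174, plus strand), stood at 46.1, 29.1, 10.3 and 9.49 CPM in DMSO and 460, 794, 517 and 497 CPM in LPS+TM7nox (log2 fold change 4.65, SE 0.462, adjusted p = 1.9e-06), and Isg15, a ubiquitin-like modifier, at 36.3, 32.4, 16.5 and 18.7 CPM in DMSO and 399, 505, 647 and 781 CPM in LPS+TM7nox (log2 4.52, adjusted p = 7.67e-08). Every treated library exceeded every DMSO library in these 4. Irf7, the factor that amplifies interferon production, rose from 322, 121, 144 and 134 CPM to 898, 1000, 1048 and 1116 CPM (log2 2.50, adjusted p = 3.45e-06), with DMSO replicate 1 the highest of its group. The smallest rises were in Irf9 (49.3 ± 11.5 to 101 ± 7.29 CPM, log2 1.06, adjusted p = 3.29e-05) and Rtp4 (69 ± 19.7 to 154 ± 16.4 CPM, log2 1.17, adjusted p = 6.01e-05).

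Against LPS, 0 of the 40 were called higher by edgeR (1 at an unadjusted p under 0.05, and 0 called by DESeq2) and 3 lower, against 6.4% of all genes (9 lower with the replicate number as a block, against 12.7% of all genes), and the median log2 difference was -0.04. The 3 were Ifit2 (log2 -1.07, adjusted p = 0.0461), Ifi47 (-1.06, adjusted p = 0.00969) and Irf1 (-0.77, adjusted p = 0.048). The interferon-stimulated response element (ISRE), searched on both strands, was found in 20 of the 38 promoter windows of 31 of these genes (52.6%), against 3.44% of all windows. Ifit1 (chr19:34640639-34640938, plus strand) holds 2 matches and is printed whole, and Rsad2 is shown as 30 bases around its match (chr12:26456553-26456582, minus strand), with the matches in capitals:
Ifit1: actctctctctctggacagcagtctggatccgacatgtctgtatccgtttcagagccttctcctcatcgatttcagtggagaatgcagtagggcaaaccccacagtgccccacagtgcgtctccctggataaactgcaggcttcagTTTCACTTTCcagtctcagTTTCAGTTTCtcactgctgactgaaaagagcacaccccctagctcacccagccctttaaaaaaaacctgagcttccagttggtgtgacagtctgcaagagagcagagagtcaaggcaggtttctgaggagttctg
Rsad2: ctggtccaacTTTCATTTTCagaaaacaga

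Regulators of the response, among them its inhibitors and subunits of NF-kB itself, rose as well. All 24 members of the list of NF-kB feedback and RNA decay regulators were tested and called higher (100%, against 23.7% of all genes, or 23 of 24 without DMSO replicate 1), with a median of 2.33. Socs3, the inhibitor of Jak-Stat signalling (chr11:117856905-117860898, minus strand), was read at 5.61, 1.89, 3.65 and 2.18 CPM in DMSO and 280, 372, 315 and 295 CPM in LPS+TM7nox (log2 fold change 6.76, SE 0.276, adjusted p = 2.04e-09). Nfkbia, the inhibitor that holds NF-kB in the cytoplasm (chr12:55535332-55539432, minus strand), was read at 62, 73.8, 81.9 and 74.3 CPM in DMSO and 326, 308, 410 and 396 CPM in LPS+TM7nox (log2 fold change 2.30, SE 0.145, adjusted p = 3.61e-08). Tnfaip3, the ubiquitin-editing enzyme A20, stood at 10, 13.4, 12 and 11.4 CPM in DMSO and 96.3, 153, 157 and 169 CPM in LPS+TM7nox (log2 3.60, adjusted p = 5.75e-08), and Zc3h12a, the ribonuclease Regnase-1 that degrades cytokine mRNA, at 11.5, 4.88, 9.12 and 7.23 CPM in DMSO and 128, 117, 125 and 114 CPM in LPS+TM7nox (log2 3.96, adjusted p = 6.34e-09). No library of one group overlapped the other in any of the 4. Zfp36, the tristetraprolin that promotes decay of AU-rich mRNA, rose from 44.8 ± 22.7 to 601 ± 45.2 CPM (log2 3.78, adjusted p = 1.88e-07), Nfkbiz from 6.88 ± 1.42 to 298 ± 92.6 CPM (log2 5.45, adjusted p = 1.13e-08) and Dusp1, a MAP kinase phosphatase, from 7.62 ± 4.08 to 178 ± 64.1 CPM (log2 4.68, adjusted p = 1.13e-07).

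Against LPS, 11 of the 24 regulators were called lower, against 6.4% of all genes, and 1, Zc3h12c, higher (log2 1.14, adjusted p = 0.00318). With the replicate number as a block 16 were lower and 2 higher, against 12.7% and 12.3% of all genes. Mean levels of Socs3 in DMSO, LPS and LPS+TM7nox were 3.33, 1042 and 316 CPM, those of Nfkbia 73, 676 and 360, and those of Dusp2 4.09, 57.1 and 9.18. The kappa-B motif stood in 8 of 31 windows of 21 of these genes (25.8%) and in 4 of 23 windows of 17 cytokine genes (17.4%), against the same 1.63%. The 30 bases around the match in Nfkbia (chr12:55492657-55492686, minus strand) and Tnfaip3 (chr10:19015403-19015432, minus strand) are printed with the match, which is on the opposite strand in both, in capitals:
Nfkbia: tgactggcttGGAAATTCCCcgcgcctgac
Tnfaip3: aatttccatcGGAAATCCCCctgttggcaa

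**Figure D3:**
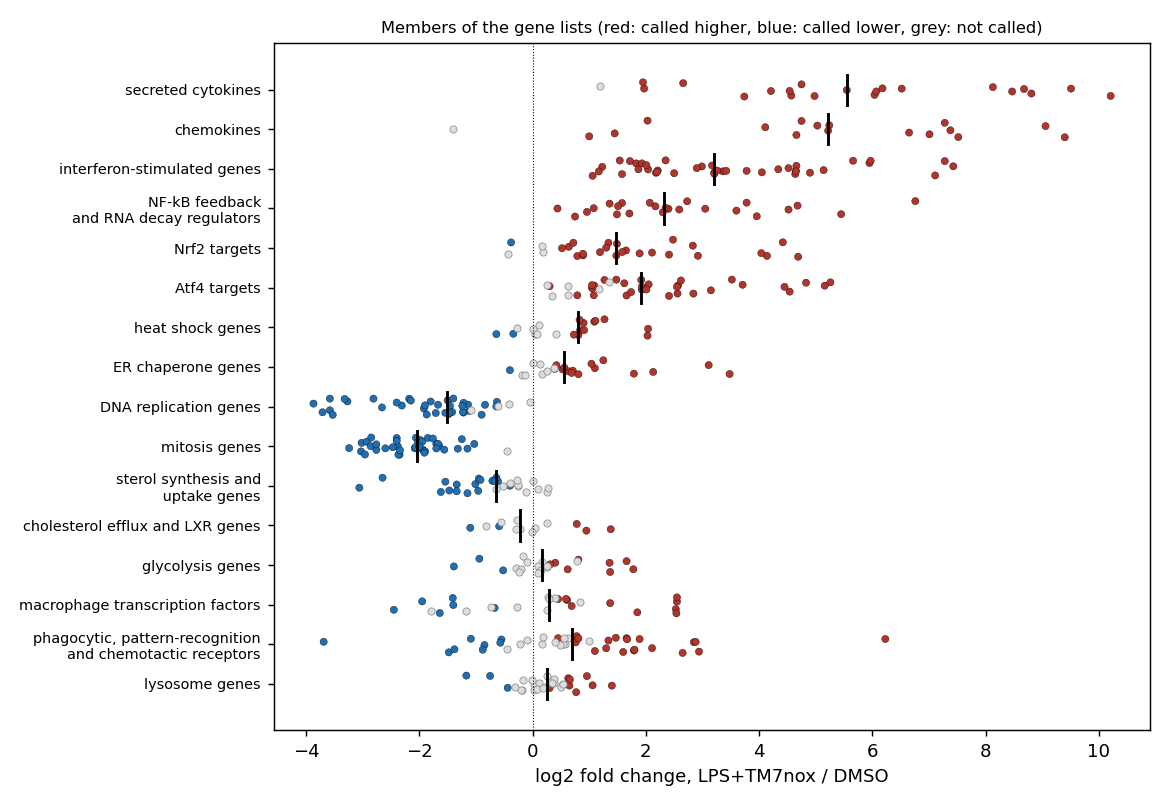
Log2 fold change of LPS+TM7nox over DMSO of each tested member of the 16 gene lists (x axis), 1 row per list, with red for called higher, blue for called lower, grey for not called and a black bar at the list's median. Medians run from 5.55 for the cytokines to -2.04 for the mitosis genes.

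The Nrf2 target genes rose in LPS+TM7nox. Of 28 members 27 were tested, with 23 called higher (85.2%, against 23.7% of all genes) and 1 lower. The median log2 fold change was 1.48 in LPS+TM7nox over DMSO, -0.00 in LPS over DMSO (10 called higher and 4 lower, against 20.2% and 21.7% of all genes) and 1.37 in LPS+TM7nox over LPS (22 higher, against 7.37% of all genes, and none lower). Hmox1, the heme oxygenase (chr8:75820241-75827217, plus strand), was read at 101, 67.4, 59.2 and 75.3 CPM in DMSO and 1164, 1747, 1214 and 1186 CPM in LPS+TM7nox (log2 fold change 4.14, SE 0.244, adjusted p = 2.01e-08). The LPS libraries stood at 95, 99.4, 161 and 154 CPM, below every LPS+TM7nox library. Slc7a11, the cystine importer that feeds glutathione synthesis (chr3:49846975-50398070, minus strand), was at 31.9, 20.8, 13.8 and 11.2 CPM in DMSO and 549, 519, 450 and 391 CPM in LPS+TM7nox (log2 fold change 4.69, SE 0.314, adjusted p = 5.77e-08). Gclm, the modifier subunit of glutamate-cysteine ligase (chr3:122039126-122065061, plus strand), was at 52, 43.2, 35.5 and 37.2 CPM in DMSO and 297, 311, 159 and 163 CPM in LPS+TM7nox (log2 fold change 2.48, SE 0.232, adjusted p = 1.1e-06), with replicates 1 and 2 of the treated group above replicates 3 and 4. Srxn1, the sulfiredoxin that repairs peroxiredoxins, stood at 55.5, 51.9, 43.6 and 40.3 CPM in DMSO and 422, 380, 316 and 323 CPM in LPS+TM7nox (log2 2.92, adjusted p = 1.24e-08). The groups did not overlap in any of the 4.

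Sqstm1, the autophagy receptor p62, rose from 148 ± 14.4 to 3160 ± 430 CPM (log2 4.42, adjusted p = 5.12e-09) and Prdx1, a peroxiredoxin, from 388 ± 109 to 2752 ± 326 CPM (log2 2.83, adjusted p = 5.22e-08). The thioredoxin reductase Txnrd1 rose from 253 ± 25.7 to 797 ± 93.2 CPM (log2 1.65, adjusted p = 2e-07). Fth1, the heavy chain of the iron store ferritin (chr19:9957911-9962462, plus strand), was read at 2019, 2287, 3258 and 2916 CPM in DMSO and 7169, 7597, 7943 and 8670 CPM in LPS+TM7nox (log2 fold change 1.58, SE 0.209, adjusted p = 2.59e-05). Its LPS libraries, at 4044, 4593, 7069 and 6152 CPM, lay between the 2 groups, and LPS+TM7nox was not called against LPS (log2 0.52, adjusted p = 0.115), but was with the replicate number as a block (log2 0.56, adjusted p = 0.00358). Nqo1, the quinone reductase, was at most 3.29 CPM in any library (0.0804 ± 0.0699 to 1.72 ± 1.07 CPM, log2 4.04, adjusted p = 0.000972). Tkt, the transketolase of the pentose phosphate pathway, was the member called lower (log2 -0.38, adjusted p = 0.00785), and the call was lost when genes were kept without a count filter (adjusted p = 0.166). Gclc, the catalytic subunit that Gclm serves, was not called (log2 -0.43, adjusted p = 0.137), but was with the replicate block (log2 -0.45, adjusted p = 0.00438) and without LPS+TM7nox replicate 1 (log2 -0.61, adjusted p = 0.0243). Its means were 61.2 CPM in DMSO, 17.5 in LPS and 45.1 in LPS+TM7nox.

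A core of the antioxidant response element, TGACNNNGC on either strand, was found in 8 of 29 windows of 22 of these genes (27.6%), against 12.4% of all windows. The 30 bases around the matches in Gclm (chr3:122245413-122245442, plus strand) and Srxn1 (chr2:152105542-152105571, plus strand), both on the opposite strand, are:
Gclm: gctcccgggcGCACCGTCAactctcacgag
Srxn1: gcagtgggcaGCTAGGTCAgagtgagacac

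**Figure D4:**
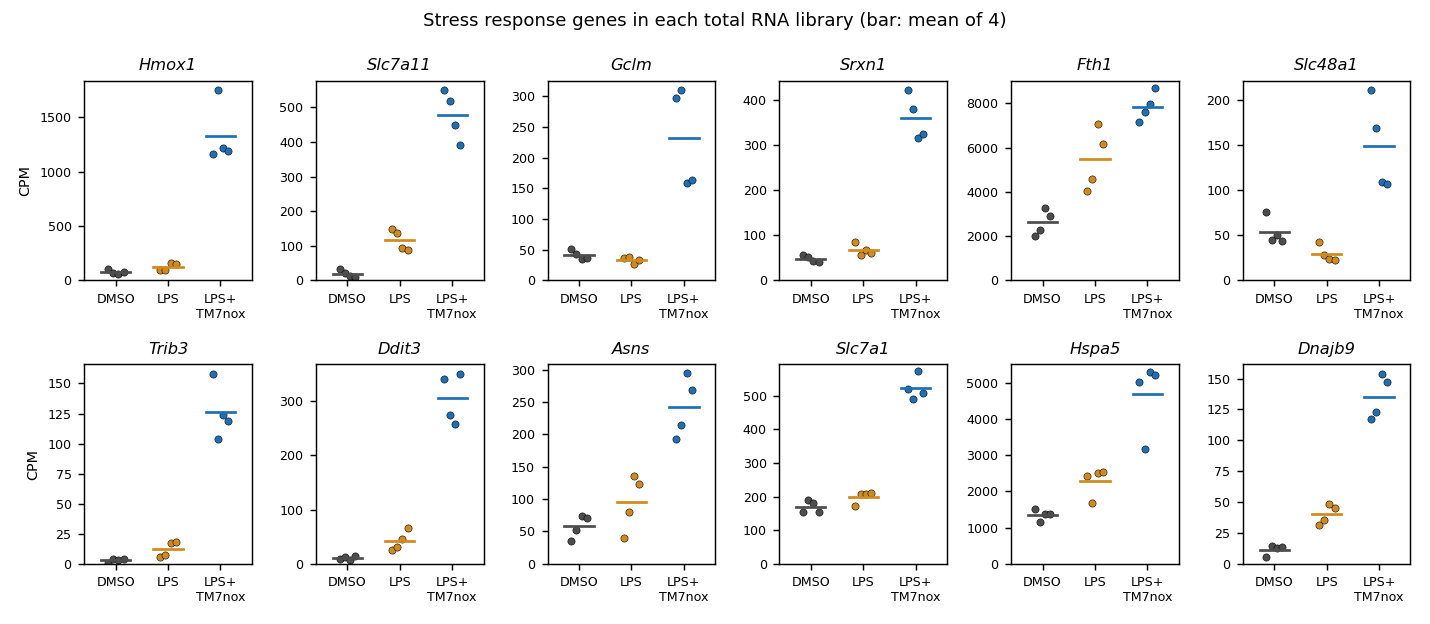
CPM (y axis, linear, a separate scale per gene) of 12 stress response genes in each total RNA library, grouped as DMSO, LPS and LPS+TM7nox, with a bar at the mean of 4. For Hmox1, Gclm and Srxn1 the LPS points lie close to the DMSO points on this scale (Hmox1 95 to 161 CPM) and all LPS+TM7nox points lie far above both, while the LPS points of Fth1 (4044 to 7069 CPM) lie between the other 2 groups.

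Atf4 target genes, which supply amino acids and load them on tRNA under stress, also rose. Of 40 members 37 were tested, and 31 were called higher (83.8%, against 23.7%; 30 without DMSO replicate 1) and none lower, with a median of 1.92. Trib3, a pseudokinase induced by amino acid shortage (chr2:152179337-152191958, minus strand), was read at 0.886, 3.65, 3.18 and 3.93 CPM in DMSO and 158, 104, 124 and 119 CPM in LPS+TM7nox (log2 fold change 5.26, SE 0.405, adjusted p = 1.82e-07). Ddit3, the transcription factor Chop (chr10:127124268-127132163, plus strand, overlapping Mars1 and Mbd6 on the other strand), was read at 8.27, 12.1, 7.89 and 13.9 CPM in DMSO and 342, 274, 258 and 351 CPM in LPS+TM7nox (log2 fold change 4.83, SE 0.307, adjusted p = 3.73e-08). Asns, the asparagine synthetase, stood at 35.1, 51.6, 74.2 and 71 CPM in DMSO and 193, 215, 295 and 269 CPM in LPS+TM7nox (log2 2.05, adjusted p = 0.000137), and Chac1, which degrades glutathione, at 0.886, 4.85, 1.27 and 1.2 CPM in DMSO and 25.9, 33.3, 32.2 and 30.1 CPM in LPS+TM7nox (log2 3.71, adjusted p = 8.82e-06). No treated library overlapped a DMSO library in the 4 genes. The low level of Chac1 in DMSO depended on the library, and without replicate 2 its log2 fold change was 4.66.

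Atf4 itself, the transcription factor, rose from 151 ± 34.6 to 897 ± 197 CPM (log2 2.57, adjusted p = 2.11e-06), and Atf3 from 24.8 ± 6.43 to 902 ± 423 CPM (log2 5.16, adjusted p = 8.9e-07). Ppp1r15a, the phosphatase subunit that restores translation, rose from 18.4 ± 1.79 to 402 ± 138 CPM (log2 4.45, adjusted p = 9.92e-08). Slc3a2, the shared heavy chain of amino acid exchangers, rose from 116 ± 10.8 to 1022 ± 94.6 CPM (log2 3.15, adjusted p = 1.46e-09), and the tRNA synthetases Nars1 from 161 ± 19.1 to 649 ± 125 CPM (log2 2.01, adjusted p = 2.46e-06) and Aars1 from 119 ± 9.66 to 450 ± 34.6 CPM (log2 1.93, adjusted p = 1.15e-07). The serine synthesis genes Phgdh and Psat1 were not called (log2 0.63, adjusted p = 0.199 and log2 0.34, adjusted p = 0.375) unless the replicate number was a block (adjusted p = 0.000772 and 0.00574). In LPS over DMSO the list's median was 0.47, with 17 called higher and 3 lower, against 20.2% and 21.7% of all genes. In LPS+TM7nox over LPS it was 1.22, with 28 higher, against 7.37% of all genes, and none lower. Slc7a3, Vldlr and Fgf21 had too few reads to test.

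The letters TGATGNAA (the CARE element bound by Atf4 dimers, both strands) stood in 11 of 37 windows of 31 of the genes (29.7%), against 3.97% of all windows. The Trib3 window (chr2:152344011-152344310, minus strand) is printed whole because Trib3 rose furthest in the list, and Chac1 as 30 bases (chr2:119351038-119351067, plus strand). The match, on the opposite strand in both, is in capitals:
Trib3: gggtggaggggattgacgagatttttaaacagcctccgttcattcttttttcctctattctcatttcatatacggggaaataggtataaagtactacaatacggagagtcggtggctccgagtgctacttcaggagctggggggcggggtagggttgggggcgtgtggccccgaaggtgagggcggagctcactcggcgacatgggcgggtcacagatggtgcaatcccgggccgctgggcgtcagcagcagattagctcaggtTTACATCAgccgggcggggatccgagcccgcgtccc
Chac1: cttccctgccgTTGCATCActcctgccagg

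Heat shock genes rose in part. In the heat shock list 19 of 22 members were tested, 11 called higher (57.9%, against 23.7%) and 2 lower (10.5%, against 23.6%), with a median of 0.81. Hsph1, the large Hsp110 chaperone (chr5:149537636-149560156, minus strand), was read at 230, 194, 187 and 208 CPM in DMSO and 329, 394, 373 and 339 CPM in LPS+TM7nox (log2 fold change 0.81, SE 0.117, adjusted p = 5.68e-05), a rise without overlap. Dnajb4 had the largest rise of the list, from 4.73, 16.9, 9.84 and 9.79 CPM to 45.1, 57.8, 35.8 and 40.3 CPM (log2 2.04, adjusted p = 2e-05). Dnajb1, the co-chaperone of Hsp70, rose from 27.2, 35.7, 34.4 and 42.4 CPM to 69.7, 69.1, 79.6 and 85.1 CPM (log2 1.11, adjusted p = 6.21e-05), and its LPS libraries held 72.7, 72.4, 103 and 102 CPM. Bag3 rose from 115, 61.3, 56.1 and 51.4 to 126, 129, 116 and 92.6 CPM (log2 0.73, adjusted p = 0.0116), where DMSO replicate 1 overlapped the treated group. Hspa1a had 3 counts over the DMSO group and was not tested, and its near-identical neighbour Hspa1b, with which it can share reads, rose from 4.71 ± 1.17 to 19.4 ± 7.12 CPM (log2 2.03, adjusted p = 0.000122). Fkbp4 fell by 0.64 (adjusted p = 0.00135) and Hspd1, the mitochondrial Hsp60, fell by 0.34 (adjusted p = 0.0274), a call lost without any 1 of DMSO replicates 3 and 4 and LPS+TM7nox replicates 1 and 4 (0.0685 to 0.121).

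The heat shock element, searched on both strands, stood in 5 of 24 windows of 18 of these genes (20.8%), against 0.603% of all windows. The match in Hsph1 lies after the start site (chr5:149636287-149636316, minus strand), on the opposite strand:
Hsph1: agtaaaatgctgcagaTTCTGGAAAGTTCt

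Among genes of the endoplasmic reticulum the rises were again partial. All 23 chaperone and unfolded protein response genes were tested, 15 were called higher (65.2%, against 23.7% of all genes) and 1 lower (none without DMSO replicate 1), with a median of 0.56. Hspa5, the lumenal chaperone BiP (chr2:34661982-34668880, plus strand), was read at 1504, 1140, 1377 and 1383 CPM in DMSO and 5030, 3163, 5294 and 5216 CPM in LPS+TM7nox (log2 fold change 1.79, SE 0.195, adjusted p = 4.44e-06). All treated libraries were above the DMSO libraries, replicate 2 the lowest of them. Dnajb9, its co-chaperone (chr12:44252341-44257171, minus strand), was read at 5.32, 14.6, 13 and 13.2 CPM in DMSO and 117, 123, 154 and 147 CPM in LPS+TM7nox (log2 fold change 3.48, SE 0.239, adjusted p = 7.02e-08), and Herpud1, of the degradation machinery, at 34.8, 34.7, 46 and 40.7 CPM in DMSO and 460, 249, 341 and 302 CPM in LPS+TM7nox (log2 3.11, adjusted p = 6.14e-08). In both, the groups were far apart. Sdf2l1, another lumenal factor, was not called, at 55.5, 65.6, 93.3 and 97.9 CPM in DMSO and 75.7, 54.5, 70.3 and 76.7 CPM in LPS+TM7nox (log2 -0.18, adjusted p = 0.444), nor were Calr (log2 0.17, adjusted p = 0.399) and Pdia3 (log2 0.25, adjusted p = 0.102, or 0.0154 with the replicate block). The member called lower, Eif2ak3, which encodes the stress sensor Perk (log2 -0.40, adjusted p = 0.0468), lost the call in 17 of 21 alternative settings, among them without DMSO replicate 1 (log2 -0.25, adjusted p = 0.114). Against LPS, 13 of the 23 were called higher, against 7.37% of all genes, and none lower (18 and none with the replicate number as a block, against 12.3% and 12.7%).

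Genes of DNA replication fell. All 40 members were tested, 36 were called lower (90%, against 23.6% of all genes; 35 without DMSO replicate 1) and none higher, with a median of -1.52. Mcm5, a subunit of the replicative helicase (chr8:75836140-75856231, plus strand), was read at 180, 176, 188 and 189 CPM in DMSO and 71, 67.6, 49.8 and 41.7 CPM in LPS+TM7nox (log2 fold change -1.67, SE 0.191, adjusted p = 6.94e-06). Cdc6, which loads the helicase (chr11:98798507-98814766, plus strand), was read at 37.5, 26.4, 30.6 and 27.2 CPM in DMSO and 2.4, 3.06, 2.42 and 2.19 CPM in LPS+TM7nox (log2 fold change -3.58, SE 0.319, adjusted p = 7.08e-07). Rrm2, the regulatory subunit of ribonucleotide reductase, stood at 205, 136, 127 and 110 CPM in DMSO and 20.2, 11.6, 5.78 and 6.63 CPM in LPS+TM7nox (log2 -3.71, adjusted p = 1.15e-05), and Pcna, the sliding clamp, at 219, 203, 160 and 167 CPM in DMSO and 101, 121, 92.2 and 87.1 CPM in LPS+TM7nox (log2 -0.90, adjusted p = 7.53e-05). The groups did not overlap in the 4 genes, and replicates 3 and 4 were the lower ones for Mcm5, Rrm2 and Pcna in LPS+TM7nox and in LPS, and for Rrm2 and Pcna also in DMSO. Ccne2, a cyclin of S phase entry, fell furthest in the list, by 3.87 (adjusted p = 4.62e-06), and its means were 27.6 CPM in DMSO, 6.45 in LPS and 1.87 in LPS+TM7nox. Against LPS, 10 of the 40 were called lower, against 6.4% of all genes, and none higher (17 and 1 with the replicate number as a block, against 12.7% and 12.3%). The members not called were Cdt1 (log2 -0.04, adjusted p = 0.825), Pola2 (log2 -0.41, adjusted p = 0.0564), Orc1 (log2 -0.61, adjusted p = 0.0653) and Fen1 (log2 -1.09, adjusted p = 0.0744). The last 3 were called lower with the replicate block (adjusted p = 0.0084, 0.0484 and 0.0373) and each without 1 library, Pola2 without DMSO replicate 2 (0.0159), Orc1 without LPS+TM7nox replicate 3 (0.00801) and Fen1 without LPS+TM7nox replicate 4 (0.0341).

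Of 40 mitosis genes, all tested, 39 were called lower (97.5%, against 23.6% of all genes; the same number without DMSO replicate 1) and none higher, with a median of -2.04. Plk1, the polo-like kinase (chr7:121758646-121769108, plus strand), was read at 96.6, 51.1, 49 and 49.6 CPM in DMSO and 13.5, 9.38, 3.44 and 3.72 CPM in LPS+TM7nox (log2 fold change -3.03, SE 0.473, adjusted p = 0.000115). Top2a, the topoisomerase that untangles chromosomes (chr11:98883769-98915062, minus strand), was read at 312, 382, 349 and 386 CPM in DMSO and 106, 126, 70.8 and 59 CPM in LPS+TM7nox (log2 fold change -1.98, SE 0.232, adjusted p = 8.64e-06). Mki67, the proliferation marker Ki-67, stood at 1251, 1071, 966 and 933 CPM in DMSO and 223, 217, 97.8 and 82.9 CPM in LPS+TM7nox (log2 -2.76, adjusted p = 5.98e-05), Ccna2, cyclin A, at 120, 161, 144 and 142 CPM in DMSO and 22.5, 23.2, 5.78 and 8.87 CPM in LPS+TM7nox (log2 -3.24, adjusted p = 1.88e-05), Ccnb1, cyclin B, at 63.5, 88.1, 65.6 and 76.2 CPM in DMSO and 23.1, 29, 13.7 and 16.1 CPM in LPS+TM7nox (log2 -1.85, adjusted p = 1.02e-05), and Cdc20, an activator of the anaphase-promoting complex, at 61.4, 58.5, 65.5 and 62.3 CPM in DMSO and 20.8, 18.4, 14.7 and 10.9 CPM in LPS+TM7nox (log2 -1.94, adjusted p = 6.77e-06). In each of the 6, every treated library was below every DMSO library, and replicates 1 and 2 of the treated group were above replicates 3 and 4. The member not called was Cks2 (log2 -0.46, adjusted p = 0.268).

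Replication-dependent histone genes took 1.01% ± 0.0709 (SD, n = 4) of the counts in DMSO and 0.215% ± 0.0227 in LPS+TM7nox. Of 67 histone genes 51 were tested, and all 51 were called lower (100%, against 23.6% of all genes; 52 of those tested without DMSO replicate 1). In 38 of them the groups did not overlap, which held with a call in 39.3% of all genes. H3c8, a histone H3 gene, was read at 228, 89.5, 69.3 and 81.6 CPM in DMSO and 5.69, 6.6, 1.64 and 1.92 CPM in LPS+TM7nox (log2 -4.88, adjusted p = 2.99e-05). H2bc8, a histone H2B gene, was at 2824, 321, 343 and 343 CPM in DMSO and 254, 157, 109 and 102 CPM in LPS+TM7nox (log2 -2.62, adjusted p = 0.0108), where DMSO replicate 1 alone was far above the others. Without that library the log2 fold change was -1.11 and was not called (adjusted p = 0.0794). Histone genes have near-identical copies, so reads may be split among them.

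The promoters of both cell cycle lists were searched for elements known from such genes. The E2F letters TTTNNCGC stood in 17 of 38 windows of 32 replication genes (44.7%), against 5.17% of all windows, and the CHR letters TTTGAA, to which the DREAM complex binds, in 26 of 36 windows of 34 mitosis genes (72.2%), against 17.9%. Both strands were searched. Mcm5 (chr8:75109259-75109558, plus strand) holds 2 overlapping E2F matches, 1 on each strand, which read as 1 run of capitals, and Top2a (chr11:99024140-99024439, minus strand) holds 2 CHR matches. Cdc6 (chr11:98908002-98908031, plus strand) and Plk1 (chr7:122159453-122159482, plus strand) are shown as 30 bases around 1 match:
Mcm5: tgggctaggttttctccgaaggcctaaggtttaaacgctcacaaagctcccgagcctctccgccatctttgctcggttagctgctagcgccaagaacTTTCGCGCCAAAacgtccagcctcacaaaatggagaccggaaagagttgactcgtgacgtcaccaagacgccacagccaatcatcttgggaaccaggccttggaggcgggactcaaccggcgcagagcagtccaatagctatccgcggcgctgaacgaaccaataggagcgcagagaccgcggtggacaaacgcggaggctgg
Cdc6: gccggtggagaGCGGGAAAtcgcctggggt
Top2a: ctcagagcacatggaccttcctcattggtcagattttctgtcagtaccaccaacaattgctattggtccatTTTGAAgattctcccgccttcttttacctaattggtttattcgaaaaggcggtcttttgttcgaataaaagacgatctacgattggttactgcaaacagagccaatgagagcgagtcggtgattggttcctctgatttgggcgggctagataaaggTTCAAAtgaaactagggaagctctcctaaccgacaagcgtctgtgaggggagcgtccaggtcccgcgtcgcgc
Plk1: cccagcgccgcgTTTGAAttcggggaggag

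Sterol and fatty acid genes fell in part. In the sterol synthesis and uptake list 29 of 30 members were tested, 18 called lower (62.1%, against 23.6%; 22 without DMSO replicate 1) and none higher, with a median of -0.64. In 10 of the 29 the groups did not overlap, which held with a call in 39.3% of all genes. Some calls lay near the threshold. Those of Scd1 (adjusted p = 0.0453) and Msmo1 (0.0444) were each lost in several fits without 1 library. Scd2, a stearoyl-CoA desaturase (chr19:44281613-44295303, plus strand), was read at 300, 354, 637 and 598 CPM in DMSO and 78.4, 63.1, 45.6 and 39.7 CPM in LPS+TM7nox (log2 fold change -3.06, SE 0.269, adjusted p = 6.16e-07). Its LPS libraries, at 36.3, 47.2, 41.3 and 44.3 CPM, were low as well. Sqle, the squalene epoxidase, stood at 38.4, 69.6, 93.9 and 76.7 CPM in DMSO and 34.5, 31.7, 34.2 and 26.2 CPM in LPS+TM7nox (log2 -1.15, adjusted p = 0.000407). Fasn, the fatty acid synthase, fell by 1.47 (adjusted p = 0.000108). Hmgcs1 was at 15.1, 28.7, 36.8 and 31 CPM in DMSO and 14.4, 20.1, 20.6 and 17.8 CPM in LPS+TM7nox (log2 -0.64, adjusted p = 0.0228), where DMSO replicate 1 overlapped the treated libraries and the call was lost without any 1 of DMSO replicates 3 and 4 and LPS+TM7nox replicates 1 and 4 (adjusted p = 0.0538 to 0.0895). Insig1, which holds the sterol sensor in place, was not called (log2 0.09, adjusted p = 0.699). The sterol element TCACNCCAC stood in 1 of 25 windows of 20 of the genes (4%), that of Hmgcs1, against 1.24% of all windows.

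The cholesterol efflux and LXR list showed no common direction, with 13 of 16 members tested, 3 called higher (23.1%, against 23.7% of all genes), 2 lower (15.4%, against 23.6%) and a median of -0.23. Npc2, which hands cholesterol out of the lysosome, rose from 82.7, 97.4, 102 and 103 CPM to 195, 267, 264 and 279 CPM (log2 1.38, adjusted p = 1.4e-06). Mylip, a ubiquitin ligase, fell from 13.6, 13.4, 10.7 and 9.19 CPM to 4.55, 6.75, 4.55 and 5.7 CPM (log2 -1.10, adjusted p = 0.000566). Abcg1, an efflux pump, was at 56.4, 81.7, 111 and 116 CPM in DMSO and 66.5, 81.6, 51.3 and 44.3 CPM in LPS+TM7nox (log2 -0.59, adjusted p = 0.0373). Its groups overlapped, the call was lost without any 1 of DMSO replicates 3 and 4 and LPS+TM7nox replicates 1, 3 and 4 (adjusted p = 0.0641 to 0.123), and in replicates 1 and 2 alone the log2 value was 0.13. Nr1h3, the receptor LXR-alpha itself, was not called (log2 -0.28, adjusted p = 0.635).

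Glycolysis genes were mixed as well. All 24 were tested, 8 called higher (9 without DMSO replicate 1) and 3 lower (45.8% called, near the 47.3% of all genes). Slc2a1, the glucose transporter Glut1 (chr4:118965908-118996365, plus strand), rose from 88.9, 104, 77.9 and 84.9 CPM to 375, 286, 281 and 277 CPM (log2 fold change 1.78, SE 0.136, adjusted p = 1.74e-07), with no overlap. Slc2a3, Glut3, fell from 28.1, 26.8, 23.5 and 23.2 CPM to 13.8, 12, 6.64 and 6.19 CPM (log2 -1.39, adjusted p = 0.000465). Hk2, the inducible hexokinase, was at 65.6, 91, 102 and 111 CPM in DMSO and 68.4, 90.7, 132 and 120 CPM in LPS+TM7nox and not called (log2 0.15, adjusted p = 0.569), while its LPS libraries held 178, 187, 218 and 217 CPM. Pfkfb3, which makes the activator of phosphofructokinase, was at 18, 20.1, 18.9 and 20.4 CPM in DMSO and 17.5, 51.6, 37.8 and 28.9 CPM in LPS+TM7nox (log2 0.81, adjusted p = 0.016). Its LPS libraries held 151, 228, 191 and 210 CPM, and without LPS+TM7nox replicate 2 it was not called against DMSO (log2 0.53, adjusted p = 0.0639). Ldha, the lactate dehydrogenase, was not called (log2 -0.24, adjusted p = 0.163).

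Among macrophage transcription factors, 25 of 30 were tested, 10 called higher (40%, against 23.7% of all genes) and 6 lower (24%, against 23.6%), or 11 and 5 without DMSO replicate 1, with a median of 0.29. Cebpd, of the acute phase C/EBP factors (chr16:15705150-15708895, plus strand), rose from 30.4, 20.1, 17.4 and 17.8 CPM to 149, 132, 101 and 107 CPM (log2 fold change 2.55, SE 0.181, adjusted p = 9.22e-08), and Cebpb from 30.4 ± 18.7 to 171 ± 74.4 CPM (log2 2.55, adjusted p = 0.000346). Cebpa, a C/EBP factor of myeloid differentiation, fell from 31.9, 22.6, 14.9 and 16.5 CPM to 12.4, 5.65, 3.77 and 5.31 CPM (log2 -1.64, adjusted p = 0.0011). Irf8 rose from 38.4, 39.8, 49.7 and 49.5 CPM to 58.8, 84.4, 161 and 154 CPM (log2 1.37, adjusted p = 0.0127), its treated libraries differing widely. Tfeb, a regulator of lysosome genes, fell from 9.45, 12.5, 12.4 and 15.4 CPM to 1.52, 3.4, 2.58 and 1.64 CPM (log2 -2.45, adjusted p = 6.38e-06). Maf stood at 10, 1.13, 18.1 and 17.8 CPM in DMSO and 4.24, 1.72, 7.99 and 6.96 CPM in LPS+TM7nox and was not called (log2 -1.17, adjusted p = 0.143), with DMSO replicate 2 the low one of its group. Without that library it was called (log2 -1.59, adjusted p = 0.00921). With the replicate number as a block the adjusted p was 0.0264 (log2 -1.02). The LPS libraries of Maf held 118, 44.8, 102 and 105 CPM, far above both.

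Receptor genes rose more often than they fell. Of 44 phagocytic, pattern-recognition and chemotactic receptors 40 were tested, 20 called higher (50%, against 23.7% of all genes) and 8 lower (20%, against 23.6%; 7 without DMSO replicate 1), with a median of 0.69. Tnfrsf1b, the second TNF receptor (chr4:144938938-144973477, minus strand), was read at 16.8, 15.5, 19.7 and 16.4 CPM in DMSO and 1183, 1309, 1316 and 1337 CPM in LPS+TM7nox (log2 fold change 6.23, SE 0.153, adjusted p = 1e-11), with little spread within either group. Cd14, the LPS co-receptor, rose from 1144, 849, 695 and 668 CPM to 1797, 1151, 1435 and 1380 CPM (log2 0.78, adjusted p = 0.00308), and Tlr2, which senses bacterial lipoproteins, from 88.3, 121, 131 and 112 CPM to 280, 273, 215 and 207 CPM (log2 1.10, adjusted p = 0.000104). Tlr4, the LPS receptor, fell by 0.55 (adjusted p = 0.0147), a call lost without DMSO replicate 3 (0.0525) or LPS+TM7nox replicate 1 (0.0695). Csf1r, the receptor for the macrophage growth factor, fell by 1.38 (adjusted p = 0.000807). Cx3cr1, the fractalkine receptor (chr9:119877749-119898945, minus strand), fell from 118, 109, 158 and 137 CPM to 20.7, 11, 5.82 and 3.23 CPM (log2 fold change -3.69, SE 0.472, adjusted p = 1.94e-05). In the LPS libraries Cx3cr1 stood at 59.1, 48.4, 25.5 and 25.2 CPM, between the 2 groups. Mertk, a receptor for apoptotic cells, was at most 1.45 CPM in any library (log2 -0.09, adjusted p = 0.94).

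Of 30 lysosome genes 29 were tested, 9 called higher and 3 lower (10 and 3 without DMSO replicate 1), or 41.4% called against 47.3% of all genes. Ctsb, the protease cathepsin B, rose from 1450, 1846, 1711 and 1630 CPM to 3800, 3143, 3037 and 2891 CPM (log2 0.96, adjusted p = 4.2e-05). Atp6v1h, a subunit of the proton pump, rose from 55.8, 66.9, 47 and 46.3 CPM to 122, 154, 153 and 141 CPM (log2 1.40, adjusted p = 7.12e-06), and Neu1, the sialidase, fell from 64.1, 52.6, 55.4 and 48.5 CPM to 23.4, 23.8, 26 and 24.3 CPM (log2 -1.17, adjusted p = 4.66e-06). Lamp1 and Gpnmb were not called (log2 0.37, adjusted p = 0.0863 and log2 0.50, adjusted p = 0.0637). With the replicate number as a block both were called, at an adjusted p of 0.0084 (log2 0.36) for Lamp1 and 0.000316 (log2 0.49) for Gpnmb. Each was also called when 1 library was left out, Lamp1 without DMSO replicate 2 (0.0383) or LPS+TM7nox replicate 3 (0.0469) and Gpnmb without DMSO replicate 1 or 2 or LPS+TM7nox replicate 3 or 4 (0.0394 to 0.0498). Atp6v0d2, a pump subunit, was at 6.2, 32.3, 8.99 and 9.23 CPM in DMSO and 5.12, 24.2, 9.13 and 8.65 CPM in LPS+TM7nox and not called (log2 -0.31, adjusted p = 0.661), with DMSO replicate 2 far above the rest of its group. Without that library its log2 value was 0.50, and without LPS+TM7nox replicate 2 it was -0.93.

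By absolute difference in mean CPM the largest rises among called genes were those of Ccl3, Fth1, Rsad2, Rn7sk, Il1rn and Cxcl2, and the largest falls those of Lyz2, mt-Cytb, Itga4, Mki67, H2bc8 and Ahnak. The place of H2bc8 rests on DMSO replicate 1, without which its difference was -180 CPM in place of -802 and it was not called. Rn7sk, the small nuclear RNA that sequesters the elongation factor P-TEFb, was at 3450, 4807, 3428 and 4643 CPM in DMSO and 8557, 6895, 7519 and 8304 CPM in LPS+TM7nox (log2 0.94, adjusted p = 0.000351). Lyz2, the macrophage lysozyme (chr10:117111557-117118346, minus strand), was at 4216, 5655, 5174 and 5122 CPM in DMSO and 4110, 2927, 1647 and 1595 CPM in LPS+TM7nox (log2 fold change -0.97, SE 0.296, adjusted p = 0.0148), with replicate 1 of the treated group near the lowest DMSO library and replicates 3 and 4 far below. Replicates 3 and 4 were also the lower ones in LPS. Itga4, an integrin for Vcam1 (chr2:79085660-79163467, plus strand), fell from 1155, 1374, 1620 and 1499 CPM to 322, 382, 323 and 310 CPM (log2 fold change -2.08, SE 0.144, adjusted p = 7.67e-08). Ahnak, a giant scaffold protein, fell from 1935, 1814, 1730 and 1996 CPM to 1137, 1262, 1172 and 1180 CPM (log2 -0.65, adjusted p = 0.000726). mt-Cytb, a mitochondrially encoded subunit of complex III, stood at 3283, 4726, 3403 and 2993 CPM in DMSO and 2350, 3043, 1664 and 1661 CPM in LPS+TM7nox (log2 -0.72, adjusted p = 0.0118), and it was the 1 mitochondrial gene called of 10 tested (10%, against 47.3% of all genes; 2 called lower without DMSO replicate 1). Mitochondrial genes took 19.2% ± 3.74 of counts in DMSO and 17.4% ± 1.6 in LPS+TM7nox (SD, n = 4). CPM are not divided by gene length, so these differences do not rank the genes by transcript number.

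Some genes were at a similar level in DMSO and LPS and differed in LPS+TM7nox. They were picked by their values in the 3 comparisons, so what follows describes them and tests nothing. A total of 234 genes were called higher, and 118 lower, in LPS+TM7nox against both DMSO and LPS while LPS against DMSO was not called and lay within 0.3 on the log2 scale. Slc1a4, a neutral amino acid transporter (chr11:20252180-20282774, minus strand), was read at 3.84, 5.11, 1.7 and 2.22 CPM in DMSO, 0.962, 2.99, 4.88 and 5.29 CPM in LPS and 32.8, 22.7, 25.7 and 21.1 CPM in LPS+TM7nox. Eif4ebp1, the repressor of cap-dependent translation, was read at 78.9, 82.4, 79.8 and 84.4 CPM in DMSO, 67.7, 76.4, 104 and 97.7 CPM in LPS and 277, 227, 262 and 260 CPM in LPS+TM7nox. Slc7a1, an arginine transporter, stood at 154, 189, 181 and 154 CPM in DMSO, 172, 207, 209 and 212 in LPS and 521, 491, 572 and 508 in LPS+TM7nox. The treated libraries of all 3 lay above the other 8. Mtmr10 (log2 1.80 over DMSO) and Rhob, a small GTPase (1.61), complete the named genes on the higher side with Gclm.

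On the lower side stood Ccnd1, cyclin D1 of the G1 phase (chr7:144483668-144493662, minus strand), at 285, 278, 241 and 200 CPM in DMSO, 313, 197, 264 and 221 in LPS and 57.7, 63.1, 58.8 and 63.8 in LPS+TM7nox. The treated libraries fell within 57.7 to 63.8 CPM and the others within 197 to 313. Fos, of the AP-1 factor, was at 79.4, 50.5, 31.5 and 34.8 CPM in DMSO, 61.4, 37.1, 29.5 and 32.7 CPM in LPS and 24.6, 20.1, 10.5 and 11.5 CPM in LPS+TM7nox, with replicates 1 and 2 above 3 and 4 in each group. Zfp36l1, a relative of Zfp36 that also binds AU-rich mRNA, was at 23, 13.3, 29.3 and 23.5 CPM in DMSO, 21, 9.86, 31.3 and 24.2 CPM in LPS and 9.11, 4.31, 9.34 and 9.97 CPM in LPS+TM7nox. Tifab, Slc39a10, a zinc importer, and Crip1 differed from DMSO by log2 -1.50, -1.44 and -1.44.

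A few genes were moved by LPS by at least 2 on the log2 scale and in LPS+TM7nox stood within 0.5 of DMSO and were not called, which does not show that the levels are equal. Among genes averaging 5 CPM or more there were 5 that LPS raised, Abca1, Ctsc, Arc, Id1 and Klf7, and 1 that it lowered, Snx29. Predicted genes and pseudogenes were again left out. Abca1, the cholesterol efflux pump (chr4:53030787-53159900, minus strand), was read at 10.6, 12, 13.7 and 12.6 CPM in DMSO, 76.7, 99.2, 71 and 82.3 in LPS and 15, 16.8, 14.1 and 13 in LPS+TM7nox (log2 0.25 over DMSO, -2.48 over LPS). Ctsc, the protease cathepsin C, was read at 66.2, 51.5, 96.8 and 74.9 CPM in DMSO, 355, 280, 404 and 426 CPM in LPS and 72.7, 48.3, 70.8 and 63.2 CPM in LPS+TM7nox (log2 -0.18 and -2.52). Klf7 was at 7.38, 11, 12 and 10.3 CPM in DMSO, 35.7, 52.1, 45.2 and 41.6 CPM in LPS and 9.86, 14.9, 16.2 and 11.2 CPM in LPS+TM7nox. It was called against DMSO without LPS+TM7nox replicate 1 (log2 0.49, adjusted p = 0.0425) and with the replicate block (log2 0.34, adjusted p = 0.0264). For Arc the direction against DMSO depended on the libraries, with -0.20 in all and 0.56 in replicates 3 and 4 alone. Snx29 was at 7.09, 6.84, 8.86 and 8.51 CPM in DMSO, 1.53, 2.29, 1.51 and 1.55 CPM in LPS and 10.5, 4.98, 5.37 and 4.27 CPM in LPS+TM7nox, and without LPS+TM7nox replicate 1 it was called lower (log2 -0.63, adjusted p = 0.0342).

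Another set was called in opposite directions in LPS and in LPS+TM7nox, each against the same DMSO libraries. With the same limits on level and gene type, LPS was lower and LPS+TM7nox higher in 40 genes. Acot2, a mitochondrial thioesterase of fatty acyl-CoA, was read at 10, 7.34, 5.64 and 7.95 CPM in DMSO, 3.45, 1.83, 2.13 and 3.5 in LPS and 27.4, 14.8, 15.6 and 15.8 in LPS+TM7nox. Slc48a1, a heme transporter of the Nrf2 list, was at 75.6, 44.8, 50.4 and 43.3 CPM in DMSO, 42, 28.5, 23.1 and 22.5 CPM in LPS and 211, 168, 109 and 107 CPM in LPS+TM7nox. In both genes the 4 LPS libraries were the lowest of the 12. Klf9, a Krüppel-like factor, was at 5.32, 6.74, 6.91 and 7.1 CPM in DMSO, 2.88, 2.99, 5.33 and 3.7 CPM in LPS and 12.2, 19.1, 19.7 and 21.1 CPM in LPS+TM7nox, where 1 LPS library reached the lowest DMSO library. Tmt1a was the last of the 4 named (log2 -1.19 in LPS, 1.26 in LPS+TM7nox). In 12 genes the order was turned. Rin2, an exchange factor for Rab5, was at 37.8, 52.6, 65.4 and 60.2 CPM in DMSO, 93.1, 86.4, 90.1 and 87.5 in LPS and 17.6, 24.9, 26.1 and 25.6 in LPS+TM7nox, and its groups did not overlap. St3gal4, a sialyltransferase, was at 12.7, 12.1, 16.9 and 10.3 CPM in DMSO, 26.1, 30.4, 20.6 and 21.7 CPM in LPS and 8.98, 9.14, 7.46 and 6.63 CPM in LPS+TM7nox. Dusp7 and Il18rap were the others named (log2 -0.66 and -0.83 in LPS+TM7nox over DMSO).

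**Figure D5:**
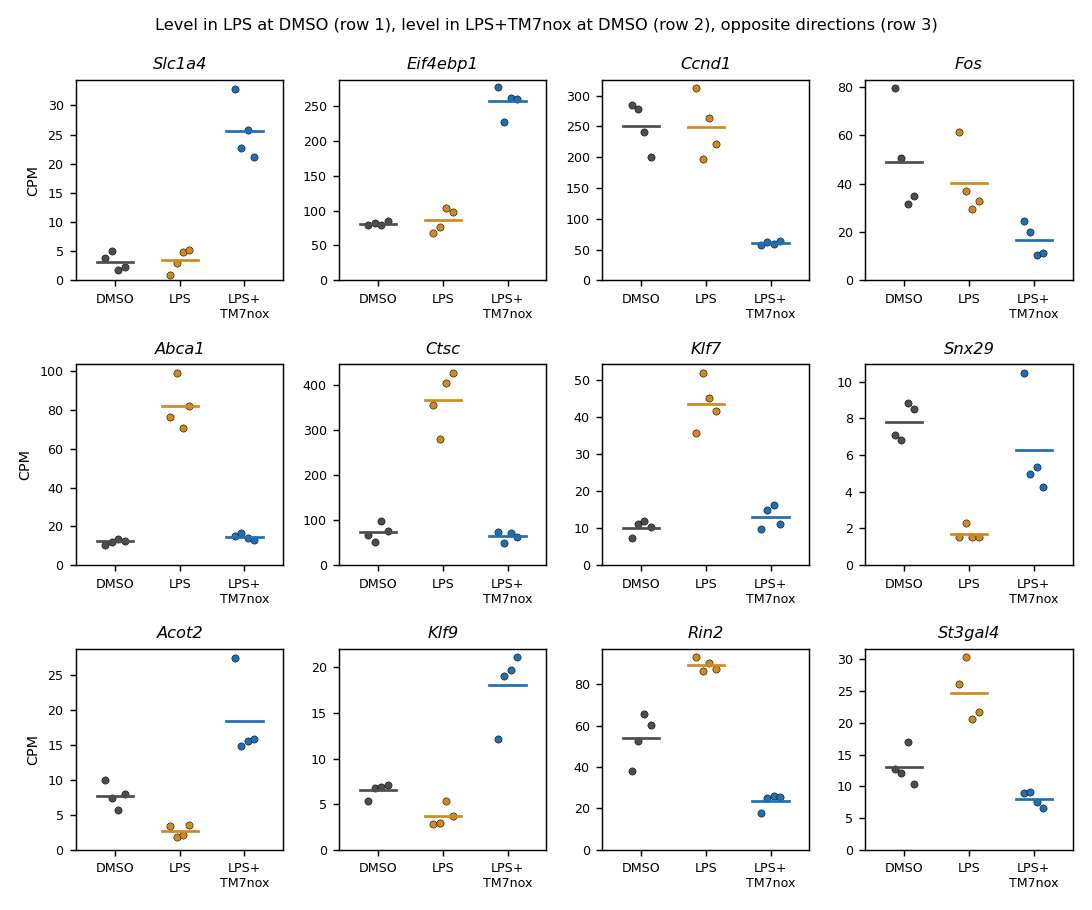
CPM (y axis, linear, a separate scale per gene) in each total RNA library, with a bar at the mean of 4. Row 1 shows genes whose LPS points lie with the DMSO points (for Ccnd1 197 to 313 CPM) and whose LPS+TM7nox points lie apart (57.7 to 63.8), row 2 genes whose LPS+TM7nox points lie near the DMSO points, and row 3 genes with LPS and LPS+TM7nox on opposite sides of DMSO.

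Elavl1, which encodes HuR and was added after its values were seen, was read at 142, 142, 98.6 and 96.4 CPM in DMSO and 128, 135, 110 and 105 CPM in LPS+TM7nox (log2 fold change 0.00, SE 0.16, adjusted p = 0.993). The range of its LPS+TM7nox libraries lay inside that of its DMSO libraries.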

How the data were processed

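Total RNA of 12 libraries was analysed, 4 each of DMSO, LPS and LPS+TM7nox; the 15 immunoprecipitation libraries of the series were left out. Per the labels' protocols, cells were lysed in an NP-40 buffer, RNA was extracted with TRIzol, and the SMART-Seq Stranded kit served to build the libraries. The authors deposited 1 table of raw counts, 55483 Ensembl genes by 27 libraries. The submitters' processing notes name STAR, HTSeq, DESeq2, FastQC 0.11.9 and GRCm39 without a role or order. The annotation release was not given in the sources used here, nor was the strand setting.

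The deposited counts entered edgeR 4.0.16 under R 4.3.3 (TMM scaling, filterByExpr with a minimum count of 10, quasi-likelihood F test) in 1 fit of the 3 group means over the 12 libraries, with Benjamini-Hochberg adjustment over the 12369 genes tested and a threshold of 0.05. Standard errors are the log2 fold change divided by the square root of F. CPM are on the TMM scale of that fit. Totals ran from 2728534 to 28285856 counts per library, and DMSO replicate 1, with the fewest, gives the least precise values. The script was tested on simulated data. Alternatives were DESeq2 1.42.0, other scalings and filters, a replicate block, the 2 groups alone, pairs of replicates and each library left out. Replicate numbers come from the labels, and the main fit did not use them. They served as a block in an alternative fit because all 12 same-number correlations of deviations from the group means were over 0.1. These ran from 0.194 to 0.449, and those between different numbers from -0.381 to 0.366, so the ranges overlap. Replicates of a group differed beyond sampling noise (chi-square per gene 38 to 167 over 18 pairs).

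Members and gene lists were chosen with earlier results of these data known. Genes named throughout, with predicted genes and pseudogenes left out, were the 12 largest changes each way without overlap, 4 fixed genes per list and its largest called members, the 6 largest CPM differences each way and 3 patterns defined in the text; some genes of the lists are not reported here by name. Of the 130 reported all but the fixed ones needed a mean of 5 CPM. Other list members were picked as examples after their values were seen. Coordinates are from GENCODE M39 on GRCm39, in which 51731 of the deposited IDs (93.2%) were found. Promoters are RefSeq windows on GRCm38.p6, which is not the build of the counts and was used for sequence only.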

Additional observations from a re-analysis of the deposited data

Results flagged for a closer look

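Among 260 groups of 4 libraries (130 named genes in DMSO and in LPS+TM7nox), 27 held a library far from the other 3, a gap to the nearest above Dixon's 95% critical share of the group's range. For independent normal values chance gives about 1 in 20. Many of the named genes were picked by their values, and some groups hold a single read. The share of 27 in 260 is therefore not tested against it. DMSO replicate 1, the shallowest library, stood apart in 8, DMSO replicates 2 and 3 in 4 each, LPS+TM7nox replicate 1 in 5 and replicate 2 in 6.

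DMSO replicate 1 was high for H2bc8 (2824 CPM, the other 3 at 321 to 343), H3c8 (228, others 69.3 to 89.5), Irf7 (322, others 121 to 144), Bag3 (115, others 51.4 to 61.3), Plk1 (96.6, others 49 to 51.1), Nr1h3 (17.4, others 4.45 to 5.58) and Id1 (9.45, others 3.98 to 4.68). It was low for Dnajb9 (5.32, others 13 to 14.6). DMSO replicate 2 was high for Ccl3 (526, others 114 to 139), Atp6v0d2 (32.3, others 6.2 to 9.23), Chac1 (4.85, others 0.886 to 1.27) and Hspa1a (0.0996, others 0). DMSO replicate 3 was high for Ccl5 (5.51, others 1.77 to 1.89) and Lcn2 (0.382, others 0 to 0.0428), and held the single reads of Serpina3f (0.0424) and Slc7a2 (0.0424).

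LPS+TM7nox replicate 1 was high for Ccl2 (1112 CPM, others 920 to 950), Slc2a1 (375, others 277 to 286) and Acot2 (27.4, others 14.8 to 15.8), and low for Il1a (68.9, others 130 to 137) and Rin2 (17.6, others 24.9 to 26.1). LPS+TM7nox replicate 2 was high for Ccl9 (2247, others 1571 to 1657), Hmox1 (1747, others 1164 to 1214), Ifit1 (794, others 460 to 517) and Crip1 (25.8, others 18.8 to 19.4). It was low for Hspa5 (3163, others 5030 to 5294) and Zfp36l1 (4.31, others 9.11 to 9.97).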

How the results depend on the processing

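Over 21 alternative settings, 12 of which left out 1 library, 129 named genes gave 2700 values in LPS+TM7nox against DMSO. Of these, 2596 kept their direction and side of the threshold, 50 lost the call, 24 gained it and 30 turned, and 21 of the 112 called genes lost the call in at least 1 setting. The values that turned belong to 12 genes, of which Abcg1 alone was called with all libraries, and Arc was called in 1 setting in which it turned. With replicates 1 and 2 alone the log2 fold changes that turned were 0.13 for Abcg1, 0.14 for Sdf2l1, 0.01 for Ldha, 2.43 for Mertk, 0.09 for Ctsc, 0.09 for Id1 and 0.19 for Snx29. With replicates 3 and 4 alone they were 0.56 for Arc, -0.08 for Insig1 and 0.02 for Atp6v0d2. Mertk stood at 0.02 by DESeq2 and 0.24 with the replicate block, and Id1 at 0.03 without a filter beyond 1 count. Leaving out 1 library at a time gave -0.08 to 0.23 for Insig1, -0.60 to 0.26 for Nr1h3, -0.50 to 0.42 for Mertk, -0.93 to 0.50 for Atp6v0d2, -0.35 to 0.11 for Arc and -0.23 to 0.22 for Id1. Elavl1, at 0.00 with all libraries, turned to -0.08 with upper-quartile scaling, -0.02 when 10 CPM was required and -0.07 with replicates 1 and 2 alone, and ranged from -0.09 to 0.10 with 1 library left out. The cause was not tested. Leaving out 1 library gave 5131 to 6209 called genes in LPS+TM7nox against DMSO. With replicates 1 and 2 alone, which leaves 2 libraries per group and includes the shallow DMSO library, 2246 genes were called, 1314 higher, 932 lower and 764 lower at a log2 of -1 or less. Requiring 10 CPM left 989 genes lower at -1 or less, with fewer genes tested. Upper-quartile scaling moved the split to 2582 higher and 3310 lower (43.8% higher, against 50% as reported), and no scaling moved the median of all genes by over 0.1.

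For LPS against DMSO, replicates 1 and 2 alone gave 1668 genes, 1048 higher and 620 lower. For LPS+TM7nox against LPS, 168 genes (98 higher, 70 lower) were called with replicates 1 and 2 alone and 3489 (1797 higher, 1692 lower) with replicates 3 and 4 alone. Those called lower, 792 as reported, ranged from 503 without LPS+TM7nox replicate 4 to 1061 without DMSO replicate 1, and were 519 without LPS+TM7nox replicate 3. The replicate block gave 3091 genes (1526 higher, 1565 lower) in this comparison and 7173 in LPS+TM7nox against DMSO. Beside the genes whose block value the text gives, it changed no call of a named gene in LPS+TM7nox against DMSO.

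With replicates 1 and 2 alone, members called fell to 6 for endoplasmic reticulum chaperones, 3 for sterol synthesis, 2 for cholesterol efflux, 5 for glycolysis, 14 for receptors and 7 for lysosome genes. The 0 counts of cell type markers were not checked further. Every other 0 given for a list in LPS+TM7nox against DMSO with all libraries was 0 at an unadjusted p under 0.05 by edgeR. It was also 0 by DESeq2. The same held for each 0 against LPS, except the interferon-stimulated genes (given in the text) and the replication genes, where 1 was higher at an unadjusted p under 0.05 and 1 by DESeq2. Depth limits the genes with few or no DMSO reads, such as Csf2, Ccl17, Serpina3f and Slc7a2, to a bound or a wide interval.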
